A study of Mus musculus with 16 samples.

Results

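The genes described here are 10 integrin subunits, Itgam, Itgb2, Itgal, Itgb7, Itga5, Itga6, Itgb1, Itgav, Itgb3 and Itgb5, measured in macrophages sorted from mouse gliomas. They were taken by name, as every probe set annotated to 1 of these symbols alone. Each gene is represented by its probe set with the highest mean over the 16 arrays, and the others, 22 probe sets in all, served as a check. They are 10 of the 12394 genes that could be tested. One of them, Itgam, encodes CD11b, the surface protein by which the cells were sorted.

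BLZ945 inhibits the kinase of the CSF-1 receptor, on which macrophages depend. The BLZ945 group (8 mice) received it by gavage once a day for 7 days, at a labelled dose of 200 mg with no body weight stated, and the Vehicle group (8 mice) received the 20% captisol carrier in the same way. All mice, both groups alike, were Nestin-Tv-a;Ink4a/Arf-/- on a mixed background. Their gliomas were started by intracranial injection of DF-1:RCAS-PDGF-B-HA cells, so that the PDGF-B virus enters cells in which the Nestin promoter drives its receptor, Tv-a. Tumours were dissociated with papain, and CD11b+ Gr1- cells were sorted, giving 75 ng of RNA and 1 array per mouse. The BLZ945 mice were 5 females and 3 males, 4 of them 11.29 and 4 of them 13.14 weeks old. The Vehicle mice were 4 females and 4 males, with 4 mice of 11.29, 2 of 11.43 and 2 of 12.29 weeks. The labelled initial tumour volume, which has no unit, averaged 78.2 ± 30.6 in BLZ945 mice (SD, n = 8, range 41.3 to 132.3) and 17.8 ± 6.38 in Vehicle mice (SD, n = 6, range 11.9 to 27.3). These ranges did not overlap, although mice were enrolled at 4.5 to 40 mm3 according to the protocol.

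Integrins are receptors for matrix and for other cells, each built of 1 alpha and 1 beta chain that reach the cell surface only as a pair. Itgb2 is the shared beta chain of the leukocyte integrins and pairs with Itgam (CD11b, together Mac-1 or complement receptor 3), Itgal (CD11a, together LFA-1) and Itgax (CD11c). Itgb1 pairs with many alpha chains, among them Itga5, the fibronectin receptor, and Itga6, a laminin receptor. Itgav pairs with Itgb1, Itgb3 or Itgb5 in receptors for vitronectin and other proteins with an RGD motif. Itgb7 pairs with Itga4 or Itgae in leukocyte receptors for MAdCAM-1 and E-cadherin. In the brain, Itgam is a standard marker of microglia and of infiltrating myeloid cells.

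On the GRCm38.p6 build, Itgam lies at chr7:128062640-128118491 and Itgal on the same chromosome at chr7:127296139-127335137. Itga5 (chr15:103344286-103366791) and Itgb7 (chr15:102215994-102233405) also share a chromosome. RefSeq promoter windows, 250 bases before to 50 after the start, were held for 6 of the 10 genes, namely Itgam, Itga5, Itgav, Itgb1, Itgb5 and Itgb7. The windows of Itgam, the member that differed between the groups, and of Itgb5, one that did not pass the test, are shown 5′ to 3′ on the + strand, at chr7:128062390-128062689 and chr16:33829415-33829714. Capitals mark 2 motifs searched on both strands, GAGGAA, the core letters recognised by the myeloid factor PU.1, and GGGCGG, the GC box bound by Sp1.
Itgam: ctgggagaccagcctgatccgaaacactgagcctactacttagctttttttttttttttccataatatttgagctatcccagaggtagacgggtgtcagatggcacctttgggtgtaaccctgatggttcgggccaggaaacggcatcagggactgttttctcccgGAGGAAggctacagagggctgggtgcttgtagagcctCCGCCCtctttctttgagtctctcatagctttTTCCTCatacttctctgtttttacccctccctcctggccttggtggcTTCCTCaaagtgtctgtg
Itgb5: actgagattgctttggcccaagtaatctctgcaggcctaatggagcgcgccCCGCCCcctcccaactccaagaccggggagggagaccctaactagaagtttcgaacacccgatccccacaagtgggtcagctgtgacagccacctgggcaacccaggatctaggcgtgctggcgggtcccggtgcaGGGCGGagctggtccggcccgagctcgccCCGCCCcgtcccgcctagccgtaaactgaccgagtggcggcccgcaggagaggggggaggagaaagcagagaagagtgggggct
The Itgam window held 3 matches to GAGGAA and 1 to GGGCGG, with 50.3% G or C and 6 CpG. Of 32851 RefSeq promoter windows of the same length, 28.3% held GAGGAA at all and 0.68% held 3 or more matches. The Itgb5 window held 0 matches to GAGGAA and 3 to GGGCGG, with 65.7% G or C and 20 CpG, and 35.7% of all windows held GGGCGG at all and 9.85% held 3 or more. Among the other 4 windows, Itgav had 2 GAGGAA matches and Itga5, Itgb1 and Itgb7 had 1 each. These genes did not pass the test either, and only the Itgb5 window lacked GAGGAA. For GGGCGG, Itga5 had 2 matches, Itgav and Itgb1 1 each and Itgb7 0. A relation of the motifs to the differences between the groups was not tested. Matches of the 2 motifs did not overlap in the windows shown, and a match is a description of letters, not of binding.

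The main comparison asks how integrin transcripts differed between the macrophages of BLZ945 and Vehicle mice. Itgam fell and was the only member called, at an adjusted p under 0.05 from limma with Benjamini-Hochberg adjustment over 12394 genes. Its partner chain Itgb2 and the other leukocyte alpha chain Itgal did not pass. Outside the members, Itgax, which shares the same beta chain, rose. Of the 10 members, 1 was called lower and 0 higher, while of all genes 7.94% were called, 5.34% lower and 2.6% higher. At an unadjusted p under 0.05 there were 3 members, all lower, against 22.6% of all genes, and an exact permutation test per gene also called Itgam alone. The count of called members is therefore near the background, and the account below is of single genes. The median difference over the members was -0.08 log2 units, with 6 of 10 below 0, against 0.07 over all genes, of which 38.9% lay below 0.

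**Figure D1:**
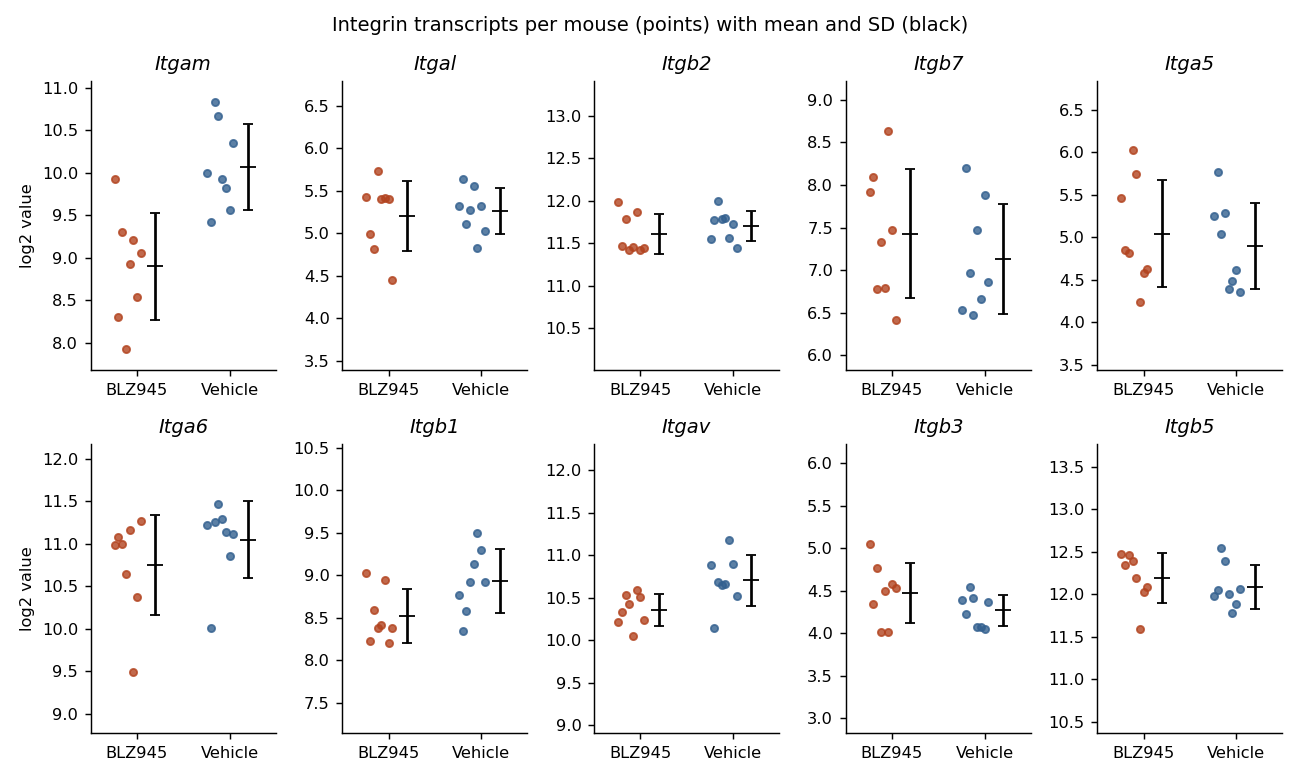
Log2 value (vertical axis, own range per gene, all panels spanning the same number of log2 units) of 10 integrin genes in each BLZ945 mouse (left, red) and Vehicle mouse (right, blue), with the mean and SD of 8 mice in black. For Itgam, 7 of 8 BLZ945 mice lie below every Vehicle mouse, and in the other panels at most 3 do.

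Itgam, read by 1 probe set, had log2 values of 7.93 at the lowest, 8.99 at the median and 9.92 at the highest in BLZ945 mice, against 9.41, 9.96 and 10.83 in Vehicle mice. Of the BLZ945 mice, 7 of 8 lay below every Vehicle mouse, and only BLZ945 1, at 9.92, reached into the Vehicle range. The means were 8.90 ± 0.63 in BLZ945 mice and 10.07 ± 0.51 in Vehicle mice (SD, n = 8 each). The difference was -1.17 log2 units (SE 0.26, 95% interval -1.71 to -0.63, limma adjusted p = 0.00807), which is 0.444 of the Vehicle level (0.306 to 0.646). Groups without any overlap were found for 0 members and for 1.36% of all genes. The gate selected for CD11b protein, so this is a difference in transcript in RNA of cells sorted for that protein. The arrays measured neither the protein nor the purity of the sort. In RNA of a sorted pool, fewer cells of a type with high Itgam and less Itgam RNA per cell cannot be told apart.

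The Itgam call depended on which mice were set against each other. Both agents were represented at 1 age, 11.29 weeks. There the BLZ945 mice had 8.30, 9.21, 9.30 and 9.92, against 9.56, 9.82, 9.93 and 10.67 in the Vehicle mice, so that 3 of 4 BLZ945 mice were below every Vehicle mouse of their age. The difference there was -0.81 (limma adjusted p = 0.306). A fit of all mice with age cohort as a covariate gave the same -0.81 (adjusted p = 0.25). No other age held both agents, so its estimate comes from the same contrast at 11.29 weeks and is not a second check. These fits called 0.718% and 1.73% of all genes and 0 members. The agent cannot be told apart from the labelled tumour volume, whose ranges did not overlap, and with its log2 as a covariate in 14 mice the difference was -0.27 (adjusted p = 0.757).

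Itgb2, the chain without which CD11b is not carried to the surface, had values of 11.41 at the lowest, 11.46 at the median and 11.99 at the highest in BLZ945 mice, against 11.44, 11.74 and 11.999 in Vehicle mice. The 2 groups overlapped over nearly their whole range. Its difference was -0.10 (95% interval -0.34 to 0.14, limma adjusted p = 0.622), so a decrease as large as that of Itgam lies outside this interval. Itgal, the alpha chain of LFA-1, abundant on lymphocytes, lay between 4.45 and 5.73 in BLZ945 mice and between 4.83 and 5.63 in Vehicle mice. These values are dim, all below 5.74, the lowest median of any array. The Itgal difference was -0.06 (95% interval -0.41 to 0.30, adjusted p = 0.859).

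Whether 2 chains that pair or share a partner changed by different amounts was tested for 8 pairs, by an exact two-sided permutation test of the difference per mouse over all 12870 labellings, adjusted over the 8 pairs. Only changes are compared here, since levels of different probe sets are not on one scale. Itgam fell relative to Itgb2 by 1.07 log2 units, and 7 of 8 BLZ945 mice lay below the lowest Vehicle mouse in this measure (difference -1.07, exact p = 0.000622, adjusted p = 0.00497). Itgam also fell relative to the dim Itgal (-1.12, exact p = 0.0101, adjusted p = 0.0404), with 4 of 8 BLZ945 mice below every Vehicle mouse. That second call was lost when any 1 of 9 mice was left out (BLZ945 2, 4, 5 or 7, or Vehicle 1, 3, 4, 6 or 8), with exact adjusted p-values up to 0.074. Itgal differed by -0.06 and is dim, where differences can be compressed. The pair therefore adds little to the Itgam difference of -1.17. Itgal and Itgb2 differed by 0.04 in their changes (exact adjusted p = 0.82). In the mice of 11.29 weeks alone the Itgam to Itgb2 difference was -0.87 (exact adjusted p = 0.229), where 4 mice against 4 allow an unadjusted p no smaller than 0.0286.

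**Figure D2:**
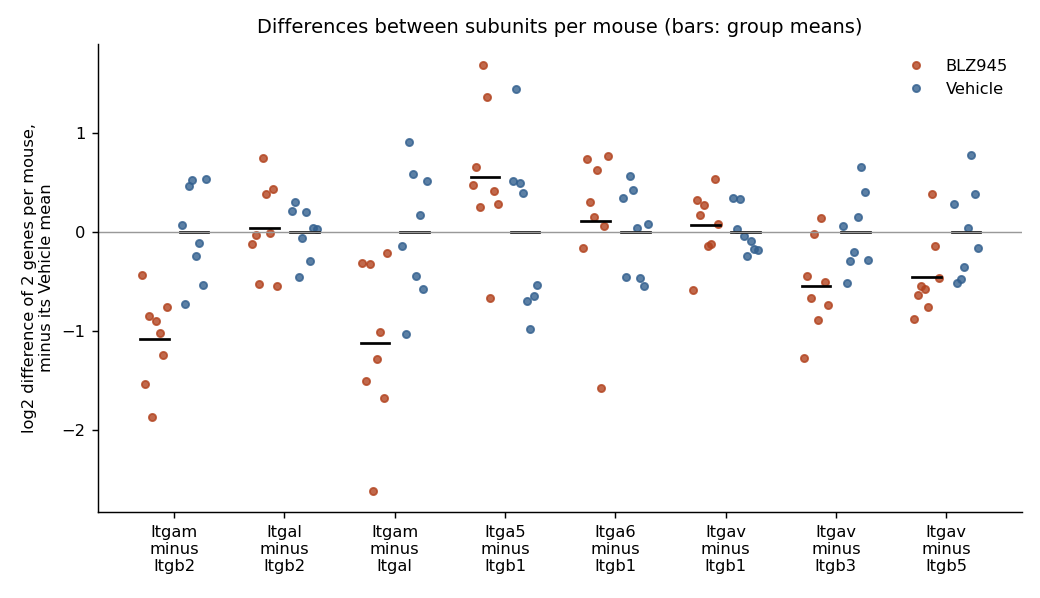
Log2 difference between 2 subunits in each mouse, shown relative to the Vehicle mean of the same pair (vertical axis, log2 units), for 8 pairs, with BLZ945 mice left in red, Vehicle mice right in blue and bars at group means. Itgam minus Itgb2 averages -1.07 in BLZ945 mice with 7 of 8 points under every Vehicle point, while Itgal minus Itgb2 averages 0.04.

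Itgax, the CD11c alpha chain found on dendritic cells and on activated microglia, moved the other way from Itgam. It had 9.93 at the lowest, 10.85 at the median and 10.96 at the highest in BLZ945 mice, against 8.73, 9.47 and 10.77 in Vehicle mice. Every BLZ945 mouse was above the Vehicle median, and 5 of 8 were above every Vehicle mouse. The difference was 1.06 (SE 0.28, 95% interval 0.47 to 1.65, limma adjusted p = 0.0255), a ratio of 2.08. This call was lost without BLZ945 5 or without Vehicle 1, 6 or 8 (adjusted p = 0.0523 to 0.0562). It was also lost in an exact permutation test per gene (adjusted p = 0.0674) and with array weights (0.87, limma adjusted p = 0.0647). With the mean of the glioma and oligodendrocyte precursor markers as a covariate the difference was 0.55 (adjusted p = 0.608), in males alone 0.50 (adjusted p = 0.705) and in females alone 1.51 (adjusted p = 0.0401). It was 1.28 at 11.29 weeks (adjusted p = 0.0981) and, from the same contrast, with age cohort as a covariate (adjusted p = 0.15). With log2 volume as a covariate it was 2.02 (adjusted p = 0.0683).

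**Figure D3:**
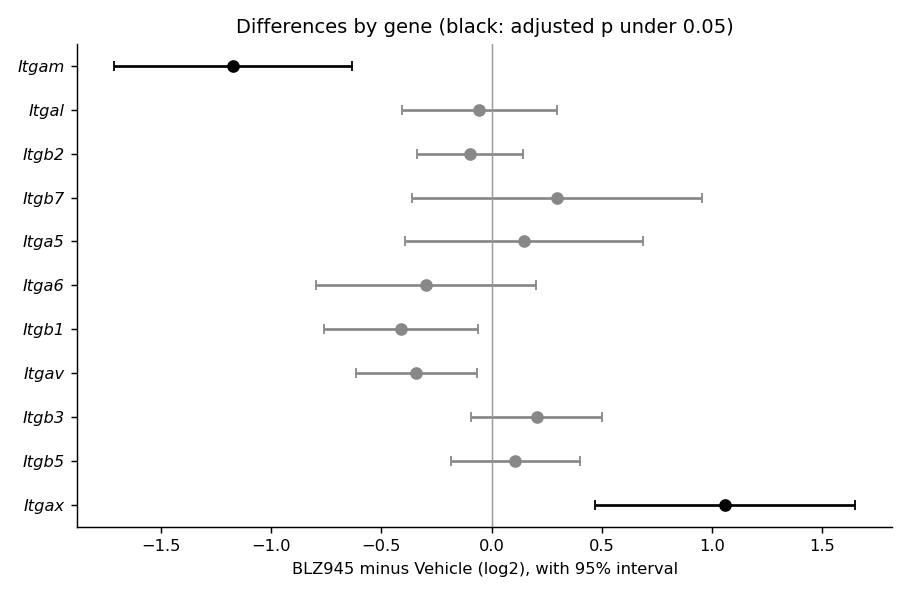
Difference of BLZ945 minus Vehicle (horizontal axis, log2 units) with its 95% interval from limma for the 10 integrin genes and Itgax, in black where the adjusted p over all genes is under 0.05. Itgam (-1.17) and Itgax (1.06) stand on opposite sides of 0, and the 9 other genes are grey.

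Among the matrix receptors, the alpha chain Itgav had values of 10.04 at the lowest, 10.38 at the median and 10.59 at the highest in BLZ945 mice, against 10.15, 10.67 and 11.17 in Vehicle mice. All 8 BLZ945 mice lay below the Vehicle median and 6 of 8 Vehicle mice lay above every BLZ945 mouse, yet Vehicle 2, at 10.15, lay within the BLZ945 range. The difference was -0.34 (95% interval -0.62 to -0.07, exact permutation p = 0.0165, limma adjusted p = 0.123), which does not pass, and without Vehicle 2 it was -0.42 (adjusted p = 0.0316). The probe sets of Itgav disagreed in size. A dimmer one averaged 4.72 ± 0.40 in BLZ945 mice and 5.52 ± 0.52 in Vehicle mice (SD, n = 8 each), a difference of -0.81 (limma adjusted p = 0.0285 over 22690 probe sets), and the dimmest differed by 0.01. With the mean of the 3 probe sets the difference was -0.38 (adjusted p = 0.0156). For comparison, 6.84% of all probe sets were called, and 7.52% of genes by the mean of their probe sets.

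Itgb1, the most widely used beta chain, had values of 8.20 at the lowest, 8.40 at the median and 9.03 at the highest in BLZ945 mice, against 8.35, 8.92 and 9.49 in Vehicle mice. In this gene 6 of 8 BLZ945 mice lay below the Vehicle median, and the ranges overlapped. The difference was -0.41 (95% interval -0.76 to -0.06, exact permutation p = 0.0325, limma adjusted p = 0.145), which does not pass. The second brightest of its 6 probe sets gave -0.38 (adjusted p = 0.241 over all probe sets), and the 4 dimmer ones lay between -0.10 and 0.10.

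The partners of these chains did not pass the test either. Itgb3, the beta chain of the platelet and osteoclast integrins, differed by 0.20 (95% interval -0.09 to 0.50, limma adjusted p = 0.401). Itgb3 was dim, at 4.47 ± 0.35 in BLZ945 mice and 4.27 ± 0.19 in Vehicle mice (SD, n = 8 each), where differences can be compressed. Itgb5 differed by 0.11 (-0.18 to 0.40, adjusted p = 0.653), and its 4 probe sets agreed, with differences of 0.11 to 0.23. Itgav relative to Itgb3 was -0.55 (exact p = 0.0235, adjusted p = 0.0626 over the 8 pairs) and Itgav relative to Itgb5 was -0.45 (exact p = 0.055, adjusted p = 0.11). Both missed the threshold, and both passed it with the mean of all probe sets of each gene (exact adjusted p = 0.0361 each). That mean includes the dimmer Itgav probe sets, and how much of the difference from Itgb3 comes from Itgav alone was not tested. Without BLZ945 6 both passed (exact adjusted p = 0.028 each), and Itgav relative to Itgb3 also passed without BLZ945 4 (0.0479) or Vehicle 2 (0.0373).

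Itga5 and Itga6, alpha chains that pair with Itgb1, overlapped between the groups over most of their ranges. Itga5 lay between 4.24 and 6.03 in BLZ945 mice and between 4.36 and 5.76 in Vehicle mice, with a difference of 0.15 (95% interval -0.39 to 0.69, limma adjusted p = 0.745). Itga6 lay between 9.49 and 11.27 in BLZ945 mice and between 10.01 and 11.47 in Vehicle mice, with a difference of -0.30 (-0.79 to 0.20, adjusted p = 0.465). The low ends of both Itga6 ranges were single mice, BLZ945 6 and Vehicle 2. Relative to Itgb1, Itga5 differed by 0.56 (exact adjusted p = 0.293), Itga6 by 0.11 and Itgav by 0.07 (exact adjusted p = 0.82 each).

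Itgb7, the beta chain of gut-homing lymphocyte integrins, spanned 6.41 to 8.63 in BLZ945 mice and 6.48 to 8.20 in Vehicle mice. Its SD, 0.76 in BLZ945 mice and 0.65 in Vehicle mice, was the largest of the 10 members in each group, and the difference was 0.30 (95% interval -0.36 to 0.95, limma adjusted p = 0.579). Males had the higher mean in both groups. Within BLZ945, Itgb7 averaged 8.06 ± 0.58 in 3 males and 7.05 ± 0.59 in 5 females (SD). Within Vehicle it averaged 7.50 ± 0.75 in 4 males and 6.76 ± 0.19 in 4 females (SD). With the agent as covariate the difference, male minus female, was 0.88, which did not pass over all genes (SE 0.25, limma adjusted p = 0.484).

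Sex was asked of all members in that fit, and 0 of 10 were called, against 0.0323% of all genes. At an unadjusted p under 0.05 there were 2 members, Itgb7 and Itga6 (-0.48, male minus female, limma adjusted p = 0.508), against 9.8% of all genes. The interaction of agent and sex called 0 of 12394 genes by limma, with 414 genes (3.34%) and 0 members at an unadjusted p under 0.05. For Itgam it was 0.01 log2 units, but with an interval of -1.10 to 1.12 that would hide a sizeable difference between the sexes. Within males Itgam averaged 8.68 ± 0.47 in 3 BLZ945 mice and 9.89 ± 0.56 in 4 Vehicle mice, and within females 9.03 ± 0.72 in 5 BLZ945 mice and 10.25 ± 0.45 in 4 Vehicle mice (SD). Neither sex alone passed (-1.21 in males, limma adjusted p = 0.287, and -1.22 in females, adjusted p = 0.0723).

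The BLZ945 mice came in 2 ages, which allows older and younger mice of 1 agent to be compared. Of the members 0 of 10 were called, against 0.0403% of all genes, and 1 member had an unadjusted p under 0.05 against 18.7% of all genes. That member was Itgb7, at 7.00 ± 0.49 in older and 7.86 ± 0.78 in younger mice (SD, n = 4 each, difference -0.86, limma adjusted p = 0.249). Sex was not a covariate in this fit and was not balanced between the ages. The males were BLZ945 2 and BLZ945 6 among the younger mice and BLZ945 7 among the older. The 2 younger males had the highest Itgb7 values of the group (8.09 and 8.63). Itgam averaged 8.61 ± 0.50 in older and 9.18 ± 0.67 in younger BLZ945 mice (SD, n = 4 each), a difference of -0.57 (95% interval -1.32 to 0.17, adjusted p = 0.367). Itgb2 lay between 11.41 and 11.46 in the 4 older and between 11.46 and 11.99 in the 4 younger BLZ945 mice, so that the older mice took the low end of its range (-0.34, adjusted p = 0.276).

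**Figure D4:**
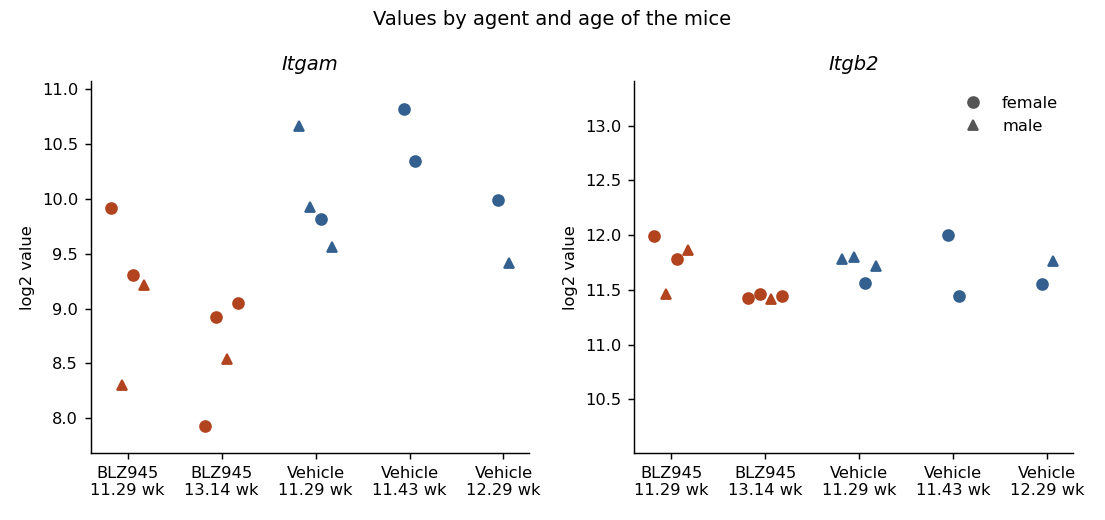
Log2 values of Itgam (left) and Itgb2 (right) in each mouse by agent and age in weeks, with circles for females and triangles for males. At 11.29 weeks, the age present under both agents, Itgam lies between 8.30 and 9.92 in BLZ945 mice and between 9.56 and 10.67 in Vehicle mice.

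The wider integrin machinery was counted in 4 lists, to be read beside the 2.6% of all genes called higher and the 5.34% called lower. Of 17 other integrin subunits, 12 had a probe set of their own here, and 1 rose (Itgax) and 0 fell, with a median difference of 0.18. The alpha chains that pair with Itgb7 did not pass, at -0.63 for Itga4 (limma adjusted p = 0.172) and -0.73 for Itgae (adjusted p = 0.219). Of 25 measured genes of integrin activation and actin linkage, which include talin, the kindlins and Rap1, 0 rose and 1 fell, with a median of -0.07. The one that fell was Parva, a parvin that ties integrin-linked kinase to actin, at -0.63 (adjusted p = 0.0345). It was dim, at 3.20 ± 0.35 in BLZ945 mice and 3.83 ± 0.39 in Vehicle mice (SD, n = 8 each) and dropped out in the alternative fit that left out the dimmest genes. Leaving out BLZ945 1, 4, 5 or 7 or else Vehicle 1, 5, 6 or 8 ended this call (adjusted p between 0.0543 and 0.063), as did array weights (adjusted p = 0.0678) and array SD as a covariate (adjusted p = 0.0662). With the glioma marker mean as a covariate the difference was -0.17 (adjusted p = 0.813). Fermt3, the kindlin of blood cells that activates leukocyte integrins, averaged 11.73 ± 0.18 in BLZ945 mice and 11.88 ± 0.15 in Vehicle mice (SD, n = 8 each, adjusted p = 0.377). Of 9 measured kinases and adaptors next to integrins, 0 rose and 0 fell, with a median of -0.12, and the smallest p-values belonged to Vav1 (-0.22, adjusted p = 0.319) and Fgr (0.40, adjusted p = 0.334).

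Of 26 measured ligands and counter-receptors, 1 rose and 3 fell, with a median of -0.07. Over all genes 2.6% were called higher and 5.34% lower. Cdh1, which encodes E-cadherin, the counter-receptor of the integrin of Itgae and Itgb7, averaged 4.48 ± 1.73 in BLZ945 mice and 7.16 ± 0.65 in Vehicle mice (SD, n = 8 each, difference -2.68, limma adjusted p = 0.00659). Vcam1, a ligand of integrins of Itga4, fell by 1.64 (adjusted p = 0.0317), and Tnc, the matrix protein tenascin C, fell by 1.35 (adjusted p = 0.0368). Madcam1, the addressin that binds the integrin of Itga4 and Itgb7, rose by 0.52 (adjusted p = 0.0225), and it too dropped out in the fit without the dimmest genes. The call of Cdh1 held in all 16 fits that left out 1 mouse, and that of Madcam1 in 15, with an adjusted p of 0.0518 without Vehicle 6. Leaving out BLZ945 2, 4, 5, 7 or 8 or else Vehicle 3, 5, 6 or 7 ended the call of Vcam1 (adjusted p between 0.0519 and 0.0655). For Vcam1, 7 of 8 BLZ945 mice lay below every Vehicle mouse, and the other, at 10.43, lay above the highest Vehicle mouse (9.95). Without BLZ945 6 the Vcam1 difference was -2.09 (adjusted p = 8.89e-05). The Vcam1 value also rested on the choice of probe set, since the mean of its probe sets gave -0.97 (adjusted p = 0.0806), and the call was also lost by exact permutation (adjusted p = 0.0898), with a trended and robust eBayes (0.0514) and with array SD as a covariate (0.0725). That of Tnc ended without BLZ945 1, 2, 3, 5, 6 or 7, and likewise without Vehicle 1, 7 or 8 (adjusted p between 0.0504 and 0.0723), and with array SD as a covariate (0.0676). With the glioma marker mean as a covariate Tnc differed by -0.29 (adjusted p = 0.853), Vcam1 by -2.39 (adjusted p = 0.0519), Cdh1 by -3.12 (adjusted p = 0.0564) and Madcam1 by 0.45 (adjusted p = 0.336). None of the 4 was called in the mice of 11.29 weeks alone, with adjusted p = 0.159 to 0.478, where Cdh1 differed by -1.17. In males alone, where 2 of 12394 genes were called, none of the 4 was called either, and Madcam1 differed by 0.24 (adjusted p = 0.756). In females alone, where 393 genes were called, Vcam1 (-2.09, adjusted p = 0.00353) and Cdh1 (-3.16, adjusted p = 0.022) were called. Madcam1 (adjusted p = 0.0535) and Tnc (adjusted p = 0.0783) were not called in females. The matrix ligand Fn1, at 11.20 ± 1.09 in BLZ945 mice and 12.09 ± 0.44 in Vehicle mice, did not pass (adjusted p = 0.156).

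Macrophage markers were bright in both groups, as the label of the cells has it. The mean of 10 macrophage and microglia markers lay between 11.78 and 12.19 in BLZ945 mice and between 11.76 and 12.19 in Vehicle mice, and 0 of 10 were called. Csf1r, the target of BLZ945, averaged 13.66 ± 0.12 in BLZ945 mice and 13.61 ± 0.14 in Vehicle mice (SD, n = 8 each, limma adjusted p = 0.73). Neutrophil markers, of cells that also carry Itgam and Itgb2, had 0 of 10 called, with list means of 4.97 to 5.61 in BLZ945 mice and 4.46 to 5.87 in Vehicle mice. Of 10 T and natural killer cell markers, cells that use Itgal and Itgb7, 0 were called, but 9 of 10 had positive differences, with a median of 0.47. The smallest p-values were those of Gzma (1.83, adjusted p = 0.0506) and Nkg7 (1.03, adjusted p = 0.0588), and their part in the Itgal and Itgb7 values was not tested. The list had means of 4.48 to 6.46 in BLZ945 mice and 4.11 to 5.43 in Vehicle mice. B cell and endothelial markers had 0 called of 6 and of 10 measured, and pericyte and fibroblast markers 0 of 10 with a median difference of -0.52. Of 6 platelet markers 1 fell, Pf4 (-1.57, limma adjusted p = 0.00111). The other 5 were not called and the list median was -0.01, so Pf4 alone does not show that platelet RNA differed. Markers of the glioma and of oligodendrocyte precursors did move with the groups. Of 10 measured 5 fell, Pdgfra, Fabp7, Ptprz1, Olig1 and Olig2, against 5.34% of all genes. Their list mean lay between 4.56 and 6.22 in BLZ945 mice and between 5.84 and 7.60 in Vehicle mice. With that list mean as a covariate Itgam differed by -1.46 (limma adjusted p = 0.0442). The list mean itself averaged 5.49 in BLZ945 mice and 6.64 in Vehicle mice, so this fit separates it from the agent only in part. A part of glioma RNA in the Itgam difference was not tested.

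As a description, the members also varied from mouse to mouse within each group. Group means were subtracted over 16 mice that share 1 normalization. Itgam then followed Itgb2 (Pearson r = 0.621) and Itgb3 (r = 0.707), the latter dim, at 4.01 to 5.04. The lowest r among the members was that of Itga6 with Itgb7 (-0.734). In each group 1 male had both the lowest Itga6 and the highest Itgb7. These were BLZ945 6 (9.49 and 8.63) and Vehicle 2 (10.01 and 8.20). Sex was not subtracted, and its part in this r was not tested. Over all genes, those most like Itgam by this measure were Exosc10 (r = 0.88), Ganab (0.796), Cltc (0.792), Ppp3cc (0.779) and D17H6S56E-5 (0.771). The SD of an array's log2 values, a measure of its overall spread, had r = -0.798 with Itga5, 0.617 with Itgav and 0.506 with Itgb1, against 0.054 with Itgam. With that SD as a covariate the difference was -0.22 for Itgav (limma adjusted p = 0.221), -0.28 for Itgb1 (adjusted p = 0.282) and -1.15 for Itgam (adjusted p = 0.0137).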

How the data were processed

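RNA of sorted cells from 16 mice was labelled with a 3′ IVT kit and hybridised to 1 Affymetrix array per mouse. The deposited values are log2 values per probe set, as their range shows. Tools named in the submitters' processing notes are GCOS 1.4 and RMA, with no role attached to either, and the annotation version was not given in the sources used here. The RMA method compresses differences of dim probe sets. No scanner intensities were used, so no detection call was possible. Precision is limited by the number of arrays.

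Of 22690 probe sets, 20393 carried 1 symbol and gave 12394 genes, and 691 with several symbols and 1606 with none were not named. The authors' log2 values were fitted as deposited, without covariates, by lmFit and eBayes of limma 3.58.1 (R 4.3.3). Genes were called at a Benjamini-Hochberg adjusted p under 0.05. The other fits had sex (agent as covariate), the agent by sex interaction, and age within BLZ945. Subunit pairs were tested by exact permutation. The highest correlation between 2 arrays was 0.991, so none was counted as a repeat. The calculations were tested on simulated data.

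The members and all lists were chosen with earlier results of these data known. Named genes are the members, up to 4 called genes per pathway list or else the 2 with the smallest p, Csf1r, called or bright markers, and the 5 genes most like Itgam. Itga4, Itgae, Fermt3 and Fn1 were added after their values were seen, as partners, activator and ligand of the members. Replicate numbers did not pair the mice. Alternatives covered probe sets, dim genes, normalization, eBayes settings, array weights, covariates, subsets and leaving out each mouse.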

Additional observations from a re-analysis of the deposited data

Results flagged for a closer look

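Among 20 sets of 8 values, 10 members in each group, 1 value stood apart. Itga6 in Vehicle 2 was 10.01, below the other Vehicle mice, and its gap to the nearest of them was 0.585 of the group's range, above the critical value of 0.526. Chance flags about 1 in 20 such sets. Without Vehicle 2 the Itga6 difference was -0.44 and did not pass (limma adjusted p = 0.204). This mouse was not unusual in Itga6 alone. It also had the lowest Vehicle value of Itgam (9.41), Itgav (10.15) and Itgb1 (8.35). Its values of Itgal (5.63), Itga5 (5.76) and Itgb7 (8.20) were the highest among Vehicle mice. For Itgb2, Itgb3 and Itgb5 it lay within the range of the other Vehicle mice.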

How the results depend on the processing

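The Itgam difference passed with the mean of probe sets, every probe set, dim genes left out, quantile normalization, other eBayes settings, array weights, sex, array SD or the glioma marker mean as covariate and exact permutation, at -1.46 to -1.10 (limma or exact adjusted p = 0.00134 to 0.0442). Leaving out each mouse gave -1.32 to -1.03. It did not pass with age cohort as covariate or at 11.29 weeks, which give the same contrast of agents (-0.81). Nor did it pass with log2 volume (-0.27), in females (-1.22) or in males (-1.21). Fewer mice entered the fits with volume, at 11.29 weeks and within each sex, the estimate itself was smaller with age cohort, volume and at 11.29 weeks, and the cause was not tested. The count of members called lower, 1, was 2 with the mean of probe sets, 0 with age cohort, volume, 11.29 weeks, females or males, and 1 to 2 without each mouse. Over all genes, 984 calls (67.3% lower) became 1552 over every probe set, 215 with age cohort, 15 with volume, 1644 with array SD (47.3% lower), 230 with the glioma markers (50% lower), 89 at 11.29 weeks, 393 in females, 2 in males and 710 to 1188 without each mouse, with 82.3% lower under age cohort, 87.6% at 11.29 weeks and 57.3% lower of 1142 with quantile normalization.

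The 2 called pairs became 4 with the mean of probe sets, 1 with quantile normalization, 0 at 11.29 weeks and 1 to 4 without each mouse. Without each mouse, called genes numbered 3 to 14 for sex, with 14 without Vehicle 4, and 0 to 16 for age within BLZ945, and 0 members were called in any of these. Replicate numbers did not pair the mice: same-numbered deviations correlated at -0.481 to 0.394, 5 of 8 over 0.1, and 2 of 8 mice matched their own number best. A replicate block gave 873 calls and -1.17 for Itgam (adjusted p = 0.0113), and Itgax, Parva and Tnc were not called with it (adjusted p = 0.0543, 0.0657 and 0.0759).

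Signs turned only for values that were not called in either setting. Itgb2 became 0.060 with age cohort and at 11.29 weeks, which give the same contrast, and 0.21 with volume. Itgal became 0.59 with volume and 0.092 in females. Itga5 became -0.026 with array weights, -0.20 with array SD and -0.45 in males. Itgb5 became -0.00043 with array weights and -0.092 in males. The glioma markers turned Itga6 to 0.15 and Itgb7 to -0.26, and volume turned Csf1r to -0.021. Itga6 minus Itgb1 became -0.14 with the mean of probe sets and -0.040 at 11.29 weeks, Itgav minus Itgb1 became -0.25 with the mean of probe sets, and Itgal minus Itgb2 became -0.14 at 11.29 weeks. Without each mouse, Itgal ranged from -0.13 to 0.052 and Itgal minus Itgb2 from -0.058 to 0.13. Of 278 values of single genes other than Itgam and of pairs, over all settings that did not leave out single mice, 210 kept their direction and side of the threshold, 48 lost a call, 3 gained one and 17 changed sign.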
